A study of Mus musculus with 2 samples.

Results

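The genes described here are 10 members of the NF-κB pathway: the cytokine genes Tnf and Il6, the subunit genes Nfkb1, Nfkb2, Rel and Relb, and the inhibitor genes Nfkbia, Nfkbiz, Tnfaip3 and Tnip1. They were chosen by name out of 16184 genes in the tables and followed through 7 lineages of lung leukocytes, each gated on detection of a lineage gene. All 10 were found in both libraries. The gates were Csf3r together with S100a8 (neutrophils), Csf1r (monocytes), C1qa (macrophages), Fscn1 (mature dendritic cells), Cd3e (T cells), Cd79a (B cells) and Ncr1 (NK cells). The fifth subunit gene, Rela, was not among the members and is counted with the pathway genes below.

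The study used 10x Genomics single-cell RNA sequencing of viable CD45+ cells from lungs seeded with HKP1, a mouse lung cancer line, at 150000 cells through the tail vein. One group received diphtheria toxin (DT) and the control group received PBS, with 4 mice per group and 1 library per group. All mice of both groups were Scgb1a1cre /iDTR, in which Cre under the control of the club cell gene Scgb1a1 switches on a diphtheria toxin receptor, so that DT is meant to deplete club cells, secretory cells of the airway lining. By the protocol, which does not separate the groups, mice received tamoxifen at 2 mg per 20 g on 5 consecutive days (3 to 7), anti-PD-1 at 250 µg on day 6, and radiation at 4 Gy daily on 3 days (10 to 12). The toxin was 2 doses of 600 ng per 20 g on days 8 and 9, and the labels place the harvest both at day 1 and at 24 to 48 h after radiation. Age is not stated, and no label ties a cell to a mouse, so the mice of a group are pooled.

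NF-κB is a family of paired transcription factors held in the cytoplasm by IκB proteins. Signals from TNF, interleukin 1 and Toll-like receptors lead to the destruction of IκB, the entry of the factors into the nucleus and the transcription of cytokines, chemokines and of the pathway's own inhibitors, which then close the response. A slower branch, driven by receptors such as CD40 and the lymphotoxin β receptor, acts through the Nfkb2 product and RelB and is known for its place in mature dendritic cells and B cells. In the inflamed lung, neutrophils and monocytes are well-known sources of TNF.

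After filtering, 5896 DT cells and 5651 PBS cells remained, at medians of 3051.5 and 3749 unique molecular identifiers (UMIs) per cell, and 8 barcodes occurred in both libraries. Cells that met the gates of several lineages were left out (14.3% of DT cells and 15.1% of PBS cells), which left 4051 DT cells and 4075 PBS cells in 1 lineage each. The gates held 83 to 1047 DT cells and 47 to 1354 PBS cells, the Fscn1 gate being the smallest and the Cd79a gate the largest. The marker genes of each gate's own lineage were all detected, and with summed levels of 102855 CPM in DT and 122780 CPM in PBS the 7 neutrophil markers were highest in the neutrophil gate. The 5 mature dendritic cell markers, which include the T and NK cell chemokine gene Ccl5, were highest in the Ncr1 gate, at 14663 CPM in DT and 16397 CPM in PBS, against 7564 CPM in DT and 11886 CPM in PBS in the Fscn1 gate. The Fscn1 gate was mixed: Ccr7, a homing receptor of mature dendritic cells, was detected in 48 of 83 DT cells and 36 of 47 PBS cells, and the endothelial gene Cdh5 in 12 and 5 cells. Cells called by sex also differed: of cells called by sex from Xist and 4 Y-linked genes, male-called cells made up 17.1% to 75.5% in DT gates and 79.6% to 97.1% in PBS gates. Many cells were called neither sex. In the neutrophil gate 139 were male-called and 45 female-called of 866 in DT, and 166 and 5 of 541 in PBS. The part of sex in the results below was not tested, and values within male-called and female-called cells are given for every pair of member and gate past the fold used for counting, beside some others.

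With 1 library per group there was no replicate check and no test, so a difference below is a description of these 2 libraries. A level is the UMIs of a gene summed over the cells of a gate scaled to a total of 1000000 UMIs in that gate (CPM). The difference is the log2 ratio of DT over PBS after 5 CPM were added to both. A plain ratio has nothing added. All intervals are exact 95% intervals for counting error only, so they say nothing of the spread between mice. A member was measured in a gate if the 2 libraries together held at least 20 UMIs of it there, and a ratio past 1.5-fold in either direction was the size used to count members. Lower levels may reflect fewer expressing cells or less RNA in each, which sums over a gate cannot tell apart.

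Tnfaip3 stood higher in DT than in PBS in 6 of 7 lineages and past 1.5-fold in 5 of them, the most of any member. In male-called cells its ratio was below even in 3 lineages, with intervals that include an even ratio. Il6 was higher in DT in the Csf1r and C1qa gates, but its DT UMIs lay in 8 of 479 and 9 of 394 cells. Female-called Csf1r cells held 23 Il6 UMIs in DT and 0 in PBS, and male-called ones 0 and 8. Nfkb2, Relb and Tnip1 were lower in DT in the Csf1r gate, and Relb also in the Fscn1 gate. Of 70 pairs of member and gate, 63 were measured and 12 were past 1.5-fold, 8 higher and 4 lower in DT. The map of ratios shows these pairs together.

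**Figure D1:**
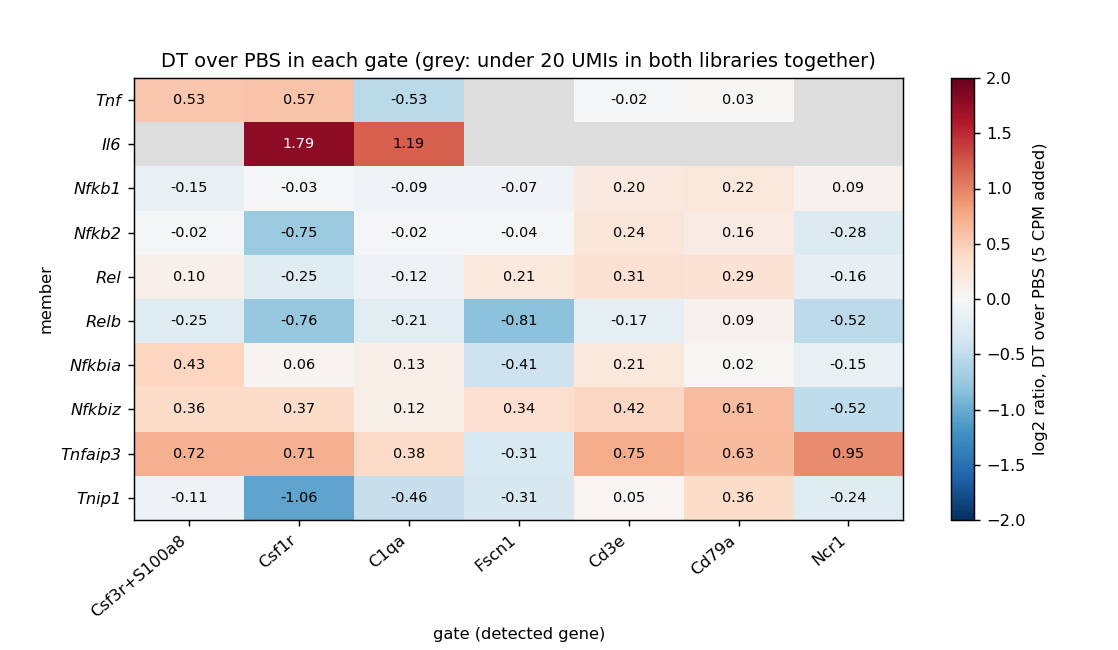
Log2 ratio of DT over PBS (5 CPM added) for the 10 members, down the page, in the 7 gates, across, with red for higher and blue for lower in DT and grey for pairs under 20 UMIs. Tnfaip3 is red in 6 gates and blue only in the Fscn1 gate at -0.31, and Tnip1 in the Csf1r gate has the lowest value at -1.06.

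The counts read differently against the share of all measured genes past the same fold. In the neutrophil gate 1 of 9 measured members was past it and higher in DT, beside 8.84% of 8164 genes (5.13% higher and 3.71% lower). In the Csf1r gate 5 of 10 were past it, 2 higher and 3 lower, beside 5.54% of 11399 genes (2.4% higher and 3.14% lower). In the C1qa gate 1 of 10 was past it and higher, beside 3.67% of 10901 genes (2.19% higher and 1.48% lower). The Csf1r count was the one furthest above its background.

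In the Fscn1 gate 1 of 8 measured members was past the fold and lower in DT, which is under the background of 26.5% of 6256 genes (19.7% higher and 6.79% lower). The Cd3e gate had 1 of 9, higher, beside 2.27% of 12612 genes (1.59% higher and 0.674% lower). The Cd79a gate had 2 of 9, both higher, beside 6.23% of 11474 genes (4.07% higher and 2.16% lower). The Ncr1 gate had 1 of 8, higher, which is close to its background of 11.2% of 8232 genes (5.45% higher and 5.73% lower).

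The promoters of members give the sequence context of these ratios. The RefSeq table (GRCm38.p6) held promoter windows for 7 of the 10 members, each from 250 bases before to 50 bases after the transcription start. A κB-type motif, GGG followed by any 2 bases and TTTCC, or on the other strand GGAAA followed by any 2 bases and CCC, was present in a window of 5 of these 7, against 1.63% of 32851 windows in the table. The units differ: the share counts single windows, while a member counted if any of its windows matched, and Nfkb2 had 3 windows and Tnfaip3 2. Members with the motif were Tnfaip3, Nfkbia, Il6, Nfkb2 and Rel, and no match was found for Tnf and Tnip1. The 4 windows below belong to the members on which the results turn, the inhibitors Tnfaip3 and Nfkbia, the cytokine Il6 and the subunit Nfkb2, each shown from 100 bases before to 20 bases after the start, 5′ to 3′ on the gene's strand, with the match in capitals. Where a gene had several windows, the first is shown. They lie at chr10:19015391-19015510 (minus strand), chr12:55492628-55492747 (minus strand), chr5:30013014-30013133 (plus strand) and chr19:46304637-46304756 (plus strand).
Tnfaip3: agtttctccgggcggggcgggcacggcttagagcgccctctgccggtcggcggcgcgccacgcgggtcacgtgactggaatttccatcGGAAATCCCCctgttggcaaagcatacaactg
Nfkbia: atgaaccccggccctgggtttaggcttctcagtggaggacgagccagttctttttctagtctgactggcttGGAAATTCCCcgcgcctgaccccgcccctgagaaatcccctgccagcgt
Il6: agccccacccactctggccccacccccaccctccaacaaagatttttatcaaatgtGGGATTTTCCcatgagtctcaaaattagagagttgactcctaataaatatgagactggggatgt
Nfkb2: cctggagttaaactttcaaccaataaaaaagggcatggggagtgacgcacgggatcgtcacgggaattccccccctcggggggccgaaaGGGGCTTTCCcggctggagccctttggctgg
The match starts 12 bases before the start in Tnfaip3, 29 in Nfkbia, 44 in Il6 and 11 in Nfkb2. Tnfaip3 and Nfkbia carry it in the reverse orientation, and Il6 and Nfkb2 in the forward one. A match of letters is a description of the window and says nothing of a bound factor, and of these 5 members some were higher and some lower in DT.

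Tnf (chr17:35199381-35202007, minus strand, GENCODE M21 on GRCm38, as for the gene positions below) encodes tumour necrosis factor, a cytokine that NF-κB induces and that in turn activates NF-κB. Its level was highest in the neutrophil gate in both libraries, at 221 CPM in DT (455 UMIs) and 152 CPM in PBS (220 UMIs). The log2 ratio there was 0.53 and the plain ratio 1.46 (1.24 to 1.72), just under the fold used for counting. In the Csf1r gate Tnf stood at 57.0 CPM in DT (174 UMIs) and 36.7 CPM in PBS (151 UMIs), with a log2 ratio of 0.57, also just under that fold. The C1qa gate had the opposite order, with 36.0 CPM in DT (120 UMIs) and 54.3 CPM in PBS (146 UMIs) and a log2 ratio of -0.53. T cells were close to even, at 18.2 CPM in DT and 18.6 CPM in PBS, and B cells low in both, at 5.65 and 5.46 CPM. Tnf was not measured in the Fscn1 gate (6 UMIs in DT and 5 in PBS) or in the Ncr1 gate (1 and 5 UMIs). In DT the order of levels was neutrophil, Csf1r and C1qa gates, and in PBS it was neutrophil, C1qa and Csf1r gates, and in both libraries the neutrophil interval lay above that of the next gate.

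Tnf ratios also differed between male-called and female-called cells within the gates. Male-called T cells held 3 Tnf UMIs in DT (103 cells) and 72 in PBS (529 cells), a log2 ratio of -1.36 and a plain ratio between 0.051 and 0.77, while female-called T cells were at 0.08. The C1qa gate had -1.61 in male-called cells (9 DT and 96 PBS UMIs) and -0.87 in female-called cells (57 and 12 UMIs). Male-called Csf1r cells had 0.98 (30 and 56 UMIs), and female-called Csf1r cells 57 UMIs in DT and 0 in PBS. Neutrophils had 0.43 in male-called cells (79 and 98 UMIs) and -0.61 in female-called cells (33 and 8 UMIs). The even T cell levels thus hold male-called cells with less Tnf in DT, and the part of sex was not tested.

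Depth per cell differs between gates and libraries, so shares of cells were taken after thinning each cell to 1000 UMIs. Tnf was then detected in 12.2% of 823 DT neutrophils and 9.0% of 513 PBS neutrophils, with 95% Clopper-Pearson intervals of 10.0% to 14.6% and 6.64% to 11.8%. Unthinned, the shares were 18.9% in DT and 15.2% in PBS, at median depths of 2015.5 and 2168 UMIs. In the Ncr1 gate, thinned in the same way, 0 of 210 DT cells and 0 of 248 PBS cells had Tnf. The neutrophil intervals overlap, so the thinned shares do not part the libraries.

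Il6 (chr5:30013114-30019981, plus strand) encodes interleukin 6, a cytokine target of NF-κB whose transcription also needs the Nfkbiz product. It was measured in the Csf1r and C1qa gates. The Csf1r gate held 63 Il6 UMIs in DT (20.6 CPM) and 10 in PBS (2.43 CPM), a log2 ratio of 1.79 and a plain ratio of 8.48 (4.32 to 18.5). These UMIs lay in few cells, 8 of 479 in DT and 3 of 553 in PBS, and 4 cells of the DT library held 54 of its 63 UMIs. All 8 of the DT cells also had Tnf, against 1 of the 3 PBS cells. The C1qa gate held 30 Il6 UMIs in 9 of 394 DT cells (8.99 CPM) and 3 UMIs in 3 of 300 PBS cells (1.12 CPM), with a log2 ratio of 1.19 and a plain ratio of 8.06 (2.51 to 41.3). Of those 9 DT cells 2 had Tnf. Male-called C1qa cells held 1 Il6 UMI in DT and 2 in PBS, and female-called ones 23 in DT and 0 in PBS.

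Il6 was at or near 0 in the neutrophil and lymphocyte gates. No UMI was seen in the neutrophil, Cd3e and Ncr1 gates of either library, and in the Cd3e gate a floor of 3 counts, which is not the exact interval, stands at 0.595 CPM in DT and 0.552 CPM in PBS. B cells had 1 UMI in each library. The Fscn1 gate held 4 UMIs in DT (5.93 CPM) and 15 in PBS (31.5 CPM), which is under 20 together and so not measured. Those 15 UMIs came from 1 cell, and the PBS level there was the highest of Il6 in any gate. In male-called cells of the Csf1r gate Il6 had 0 UMIs in 83 DT cells and 8 in 271 PBS cells, and in female-called cells 23 UMIs in 185 DT cells and 0 in 31 PBS cells.

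**Figure D2:**
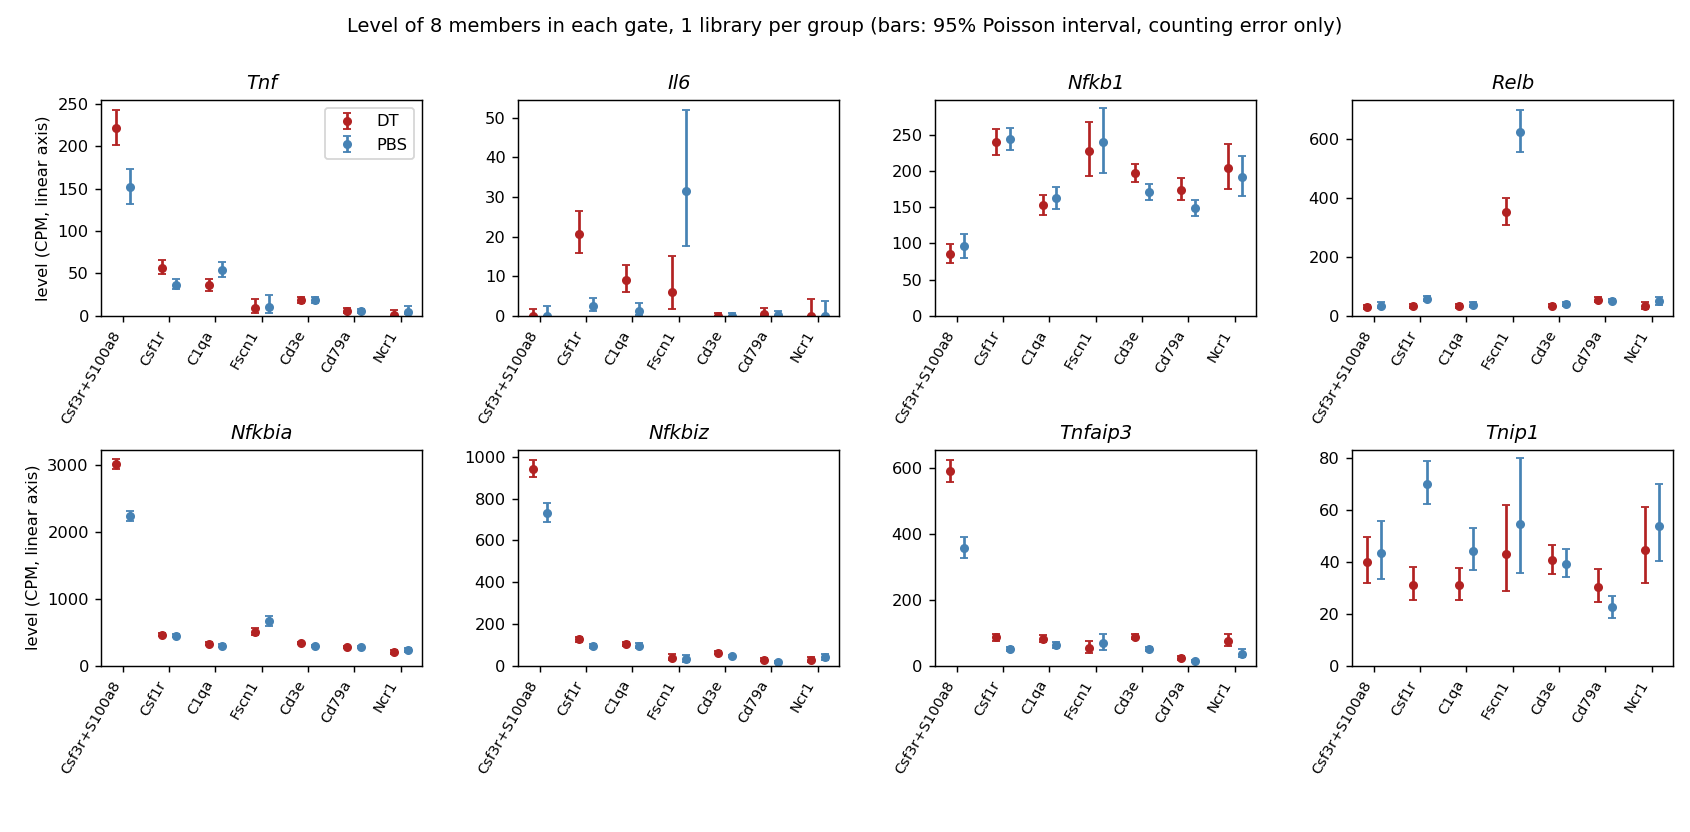
Level in CPM (linear axis) of 8 members in the 7 gates, with DT in red to the left of PBS in blue, and bars for the 95% Poisson interval of counting error in 1 library per group. Tnf, Nfkbia, Nfkbiz and Tnfaip3 stand highest in the neutrophil gate, while Relb stands at 353 CPM in DT and 624 CPM in PBS in the Fscn1 gate.

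Among the subunit genes, Nfkb1 (chr3:135584655-135691547, minus strand) encodes p105, the precursor of p50, and its log2 ratios lay between -0.15 and 0.22 in the 7 gates, none past 1.5-fold. By sex this did not hold: in male-called neutrophils Nfkb1 had 14 UMIs in DT (139 cells) and 78 in PBS (166 cells), a log2 ratio of -1.61 and a plain ratio between 0.16 and 0.54, and in female-called ones the log2 ratio was 0.48 (27 and 3 UMIs). Its level was lowest in the neutrophil gate, at 85.7 CPM in DT and 95.7 CPM in PBS. It was highest in the Csf1r gate, at 239 CPM in DT and 244 CPM in PBS, without parting from the Fscn1 gate at 228 CPM in DT and 239 CPM in PBS. Nfkb1 was thus lowest in the gate where Tnf was highest. Rel (chr11:23736847-23770970, minus strand), the gene of c-Rel, a subunit known for lymphocyte activation, had log2 ratios from -0.25 to 0.31, none past 1.5-fold. Its level was highest in the Fscn1 gate, at 243 CPM in DT and 210 CPM in PBS, followed by the Cd79a gate at 129 CPM in DT and 105 CPM in PBS.

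Nfkb2 (chr19:46304320-46312385, plus strand) encodes p100, the precursor of p52 in the slower branch. It was highest in the Fscn1 gate, at 221 CPM in DT and 227 CPM in PBS, where the libraries were even. In the Csf1r gate it stood at 56.0 CPM in DT (171 UMIs) and 97.6 CPM in PBS (401 UMIs), a log2 ratio of -0.75 and a plain ratio of 0.57 (0.48 to 0.69). The other gates had log2 ratios from -0.28 in the Ncr1 gate to 0.24 in the Cd3e gate. Nfkb2 overlaps Psd on the opposite strand, Nfkb1 overlaps the transcript Gm43430 on its own strand and Tnip1 overlaps Gm12230 on the opposite strand. Whether the counting used strand is not given in the sources used here, so reads of these partners cannot be told apart.

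Relb (chr7:19606217-19629438, minus strand), the partner of p52 in that branch, was lower in DT in 6 of 7 gates and past the fold in the Csf1r and Fscn1 gates. In the Csf1r gate it stood at 32.4 CPM in DT (99 UMIs) and 58.4 CPM in PBS (240 UMIs), a log2 ratio of -0.76 and a plain ratio of 0.56 (0.43 to 0.70). In the Fscn1 gate, where its level was highest, it stood at 353 CPM in DT (238 UMIs) and 624 CPM in PBS (297 UMIs), a log2 ratio of -0.81 and a plain ratio of 0.57 (0.47 to 0.67). The cells of the Fscn1 gate differed as well: 57.8% of DT cells and 76.6% of PBS cells had Ccr7, and the summed mature dendritic cell markers stood at 7564 CPM in DT and 11886 CPM in PBS. Within cells with Ccr7, Relb was at 494 CPM in DT (48 cells) and 703 CPM in PBS (36 cells), a log2 ratio of -0.50 that was under the fold. Its log2 ratio in the Fscn1 gate was -0.53 in male-called cells (22 DT and 228 PBS UMIs) and -0.91 in female-called cells (128 and 27 UMIs).

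Among the inhibitors, Nfkbia (chr12:55489410-55492647, minus strand) encodes IκBα, the classical inhibitor that NF-κB itself induces. The neutrophil gate had by far its highest level, at 3014 CPM in DT (6192 UMIs) and 2243 CPM in PBS (3257 UMIs). The log2 ratio was 0.43 and the plain ratio 1.34 (1.29 to 1.40). The second level was that of the Fscn1 gate, at 505 CPM in DT and 672 CPM in PBS, with a log2 ratio of -0.41. In the other 5 gates Nfkbia lay between 206 and 463 CPM in DT and between 229 and 446 CPM in PBS, and its log2 ratios lay between -0.15 and 0.21. No gate was past 1.5-fold.

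Nfkbiz (chr16:55811375-55838899, minus strand) encodes IκBζ, an inducible nuclear member of the IκB family that is needed for transcription of Il6 and some other secondary targets. It was also highest in neutrophils, at 942 CPM in DT (1936 UMIs) and 731 CPM in PBS (1062 UMIs), a log2 ratio of 0.36. The Csf1r gate followed at 125 CPM in DT and 95.6 CPM in PBS, with a log2 ratio of 0.37, and the C1qa gate at 103 CPM in DT and 94.5 CPM in PBS. Nfkbiz was past 1.5-fold in the Cd79a gate alone, at 28.9 CPM in DT (87 UMIs) and 17.2 CPM in PBS (88 UMIs), a log2 ratio of 0.61 and a plain ratio of 1.69 (1.24 to 2.29). That ratio was 1.00 in male-called cells (28 and 42 UMIs) and 1.54 in female-called cells (30 and 4 UMIs), and it was past the fold under 5 of 15 alternative settings, at 0.13 to 1.54. Nfkbiz was lower in DT only in the Ncr1 gate, from 23 DT and 40 PBS UMIs, with a log2 ratio of -0.52.

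Tnfaip3 (chr10:19000910-19015657, minus strand) encodes A20, a ubiquitin-editing enzyme that ends signalling from TNF and Toll-like receptors. In the neutrophil gate it stood at 590 CPM in DT (1213 UMIs) and 357 CPM in PBS (519 UMIs), a log2 ratio of 0.72 and a plain ratio of 1.65 (1.49 to 1.83). T cells had 87.2 CPM in DT (440 UMIs) and 49.9 CPM in PBS (271 UMIs), a log2 ratio of 0.75 and a plain ratio of 1.75 (1.5 to 2.04). Those ratios were alike in size although the level was several times higher in neutrophils. The Csf1r gate had 85.8 CPM in DT (262 UMIs) and 50.4 CPM in PBS (207 UMIs), a log2 ratio of 0.71 and a plain ratio of 1.70 (1.41 to 2.05). The Ncr1 gate had 75.4 CPM in DT (66 UMIs) and 36.7 CPM in PBS (37 UMIs), a log2 ratio of 0.95 and a plain ratio of 2.05 (1.35 to 3.16). B cells had the lowest level, 22.6 CPM in DT (68 UMIs) and 12.9 CPM in PBS (66 UMIs), with a log2 ratio of 0.63. These 5 gates were the ones past the fold. The C1qa gate was higher in DT by less, at 81.8 CPM in DT and 61.8 CPM in PBS with a log2 ratio of 0.38, and the Fscn1 gate was lower in DT, at 53.4 CPM in DT (36 UMIs) and 67.2 CPM in PBS (32 UMIs).

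The share of cells with Tnfaip3 gave the same direction at equal depth in the neutrophil and Cd3e gates. After thinning to 1000 UMIs it was detected in 33.7% of 823 DT neutrophils (30.4% to 37.0%) and 20.9% of 513 PBS neutrophils (17.4% to 24.6%). Unthinned, these shares were 45.6% in DT and 33.3% in PBS. In the Cd3e gate the thinned shares were 9.84% of 965 DT cells (8.04% to 11.9%) and 5.78% of 1021 PBS cells (4.43% to 7.39%). B cells, the gate with the lowest level, had 2.02% of 1038 DT cells (1.26% to 3.08%) and 1.5% of 1336 PBS cells (0.92% to 2.30%). The intervals of the libraries do not overlap in neutrophils and T cells and do overlap in B cells.

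Tnfaip3 ratios differed between male-called and female-called cells. In male-called neutrophils it stood at 340 CPM in DT (139 cells) and 397 CPM in PBS (166 cells), a log2 ratio of -0.22, and in female-called neutrophils at 414 CPM in DT (45 cells) and 221 CPM in PBS (5 cells), a log2 ratio of 0.89. Both DT values lie below the 590 CPM of all 866 DT neutrophils, most of which were called neither sex. The neutrophil ratios by sex thus leave out most of the gate. In male-called T cells it stood at 64.1 CPM in DT (103 cells) and 51.4 CPM in PBS (529 cells), a log2 ratio of 0.29, and in female-called T cells at 82.4 CPM in DT (493 cells) and 28.3 CPM in PBS (69 cells, 9 UMIs), a log2 ratio of 1.39. The male and female log2 ratios were 0.19 and 1.10 in the Csf1r gate, 0.44 and 0.52 in the Cd79a gate and 0.66 and 0.96 in the Ncr1 gate. They were -0.52 and 0.63 in the C1qa gate, and -0.84 (2 DT and 27 PBS UMIs) and -0.27 (22 and 3 UMIs) in the Fscn1 gate. In male-called cells Tnfaip3 was thus lower in DT in the neutrophil, C1qa and Fscn1 gates, and higher but under the fold in the Csf1r, Cd3e and Cd79a gates. The plain ratios of the lower ones had intervals of 0.68 to 1.07 (neutrophil), 0.41 to 1.06 (C1qa) and 0.06 to 2.11 (Fscn1). Each includes an even ratio, so a lower level is not told from an even one there. The part of sex in the Tnfaip3 ratios was not tested.

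**Figure D3:**
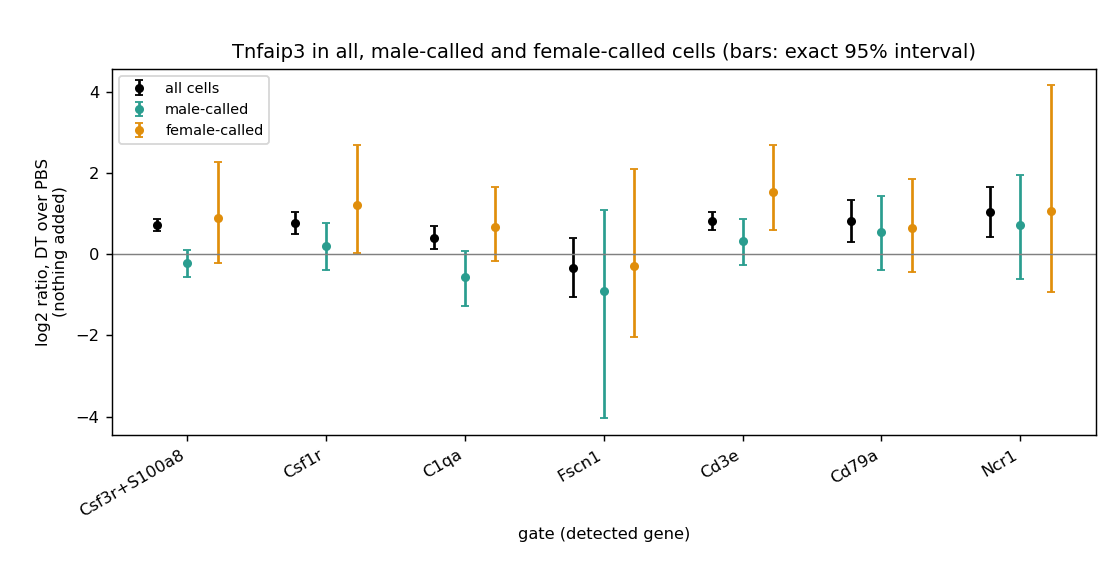
Log2 plain ratio (nothing added) of Tnfaip3, DT over PBS, in all cells (black), male-called cells (green) and female-called cells (orange) of the 7 gates, with exact 95% intervals for counting error. Male-called cells lie below all cells in every gate, and in the neutrophil, C1qa and Fscn1 gates they lie below 0 with intervals that include 0.

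Tnip1 (chr11:54910785-54962917, minus strand) encodes ABIN-1, a ubiquitin-binding partner of A20. It did not share the direction of Tnfaip3 in the Csf1r gate, where it stood at 31.1 CPM in DT (95 UMIs) and 70.1 CPM in PBS (288 UMIs), a log2 ratio of -1.06 and a plain ratio of 0.44 (0.35 to 0.56). It was lower in DT in 5 of 7 gates, and higher in the Cd79a gate at a log2 ratio of 0.36 and in the Cd3e gate at 0.05. Within male-called Csf1r cells the log2 ratios were -1.05 for Tnip1, -1.08 for Relb and -0.63 for Nfkb2, and within female-called cells -0.28, -0.14 and -0.31. The female-called PBS values rest on 31 cells with 7 Tnip1, 6 Relb and 12 Nfkb2 UMIs.

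The Csf1r gate held different cells in the 2 libraries. Cells with Ace or Treml4, genes of patrolling monocytes, made up 23.6% of the gate in DT (113 cells) and 47.4% in PBS (262 cells), and cells with Ly6c2, a gene of classical monocytes, without them made up 35.3% in DT and 26.9% in PBS. Cells with none of these genes, whose type was not defined further, made up 41.1% in DT and 25.7% in PBS. Over the gate the 8 markers of C1q macrophages summed to 2354 CPM in DT and 1016 CPM in PBS. Among the Ace or Treml4 cells 0 of 9 measured members were past 1.5-fold higher in DT and 4 were lower, beside 8.53% and 8.9% of 8580 genes (17.4% either way). The 4 were Tnip1 at 41.2 CPM in DT and 111 CPM in PBS (log2 ratio -1.33), Relb (-0.77), Nfkbia (-0.67) and Nfkb2 (-0.65). Among cells with none of these genes 4 of 10 members were higher, Il6 (1.57), Tnfaip3 (1.23), Nfkbiz (1.01) and Tnf (0.73), and 2 were lower, Relb (-0.77) and Nfkb2 (-0.65), beside 6.25% and 6.75% of 8820 genes (13% either way). Ly6c2 cells had log2 ratios of 1.98 for Il6, 0.83 for Nfkbiz, -0.74 for Nfkb2 and -0.65 for Relb, while Tnfaip3 was even there at -0.09. Relb and Nfkb2 were thus lower in DT in all 3 groups of Csf1r cells, and Nfkbia, close to even over the gate, had log2 ratios on both sides of 0 within it. The gate also held RNA of other cells: the 4 epithelial markers summed to 1032 CPM in DT and 61.3 CPM in PBS, and 1 DT cell held 3067 of the 3088 Sftpc UMIs there. With the same weight for each group of cells in both libraries the log2 ratios over the gate were -0.83 for Tnip1, -0.73 for Relb, -0.67 for Nfkb2, 0.65 for Tnfaip3 and 1.49 for Il6, all past the fold.

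Sex differed within these groups of Csf1r cells too. Of the Ace or Treml4 cells 19 were male-called in DT and 134 in PBS, with log2 ratios of -1.10 for Tnip1, -1.58 for Relb, -0.78 for Nfkb2 and -0.20 for Nfkbia. Of the cells with none of these genes 30 were male-called in DT and 71 in PBS, with 1.10 for Tnf, 0.93 for Nfkbiz, 0.17 for Tnfaip3, -0.83 for Relb and -0.62 for Nfkb2, and with 0 Il6 UMIs in DT and 7 in PBS. Tnfaip3 and Il6 were thus not past the fold and higher there in male-called cells. Female-called PBS cells numbered 9 and 8 in these groups, too few to read a ratio, and the parts of makeup and sex were not tested.

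Neutrophils were divided by Siglecf, a receptor of tumour-associated neutrophils and eosinophils in mice, and by Mmp8, a granule collagenase of younger neutrophils. Of 7 members measured among the 98 DT and 43 PBS cells with Siglecf, 4 were past 1.5-fold higher in DT and 1 lower, beside 19.3% and 11.3% of 3106 genes (30.6% either way). Tnf stood at 562 CPM in DT and 271 CPM in PBS (log2 ratio 1.04), Nfkbiz at 1003 and 488 CPM (1.03), Tnfaip3 at 725 and 366 CPM (0.98) and Nfkbia at 3985 and 2291 CPM (0.80). Nfkb1, at 65.2 CPM in DT and 115 CPM in PBS from 18 and 17 UMIs, was the lower one (-0.78). Among Mmp8 cells (359 in DT and 259 in PBS) Tnfaip3 was at 430 CPM in DT and 348 CPM in PBS (0.30) and Nfkbia at 2044 and 2008 CPM (0.03). Among neutrophils with neither gene (409 in DT and 239 in PBS) Tnfaip3 was at 722 CPM in DT and 368 CPM in PBS (0.96) and Nfkbia at 3758 and 2534 CPM (0.57). The inhibitor ratios were thus smallest in the cells with Mmp8, and the Tnfaip3 ratio was alike in cells with Siglecf and in cells with neither gene. Tnf was lower in DT in the cells with Mmp8, at 53.9 CPM in DT and 80.4 CPM in PBS (-0.54). That is under the fold, with a plain ratio between 0.45 and 0.99. In cells with neither gene Tnf was at 294 CPM in DT and 212 CPM in PBS (0.46). Cells with Siglecf made up 11.3% of the gate in DT and 7.95% in PBS. Male-called Siglecf cells numbered 9 in DT and 18 in PBS, with log2 ratios of 2.27 for Tnf, 1.82 for Nfkbiz, 1.5 for Nfkbia and 0.70 for Tnfaip3, and only 1 PBS cell was female-called.

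**Figure D4:**
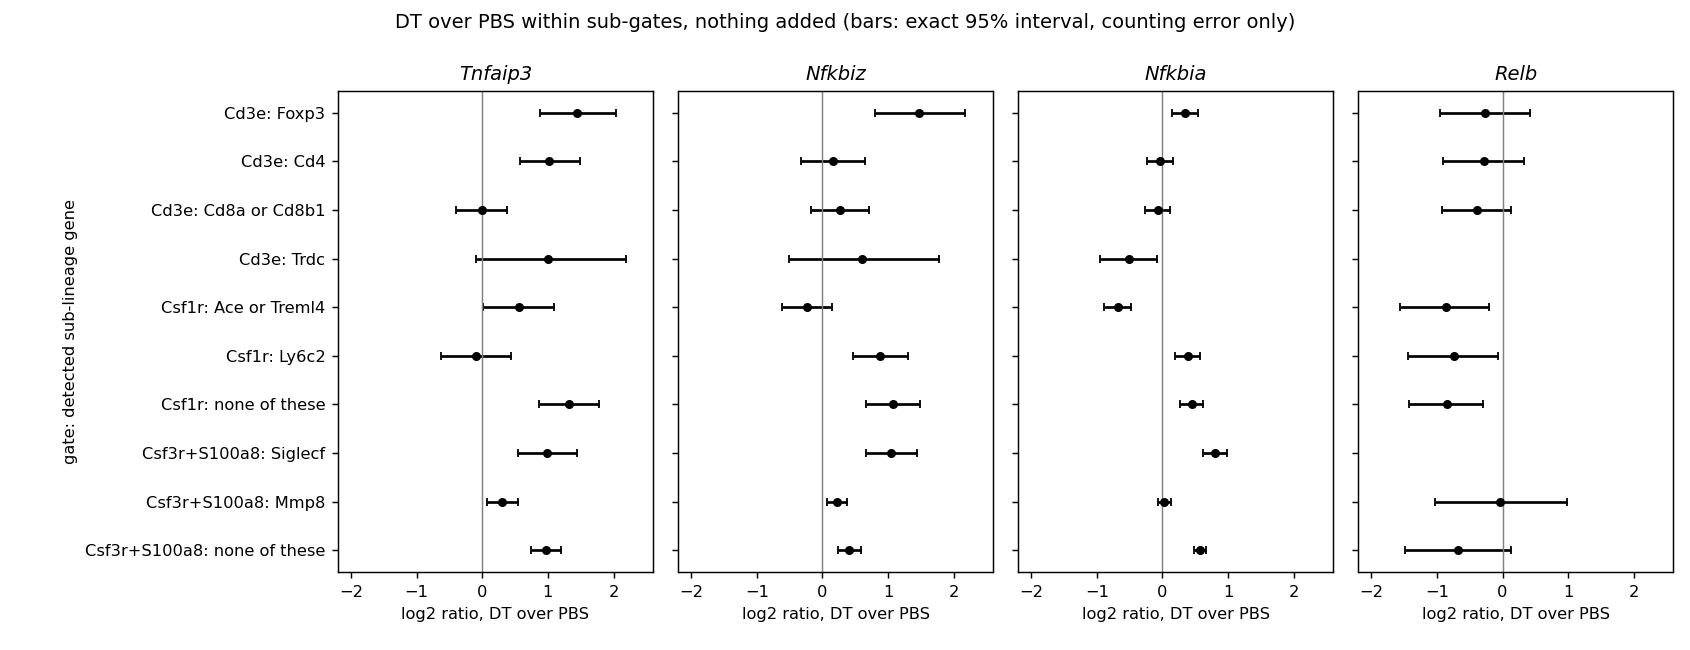
Log2 plain ratio (nothing added), DT over PBS, of 4 members in groups of cells within the Cd3e, Csf1r and neutrophil gates, with exact 95% intervals for counting error and a line at 0. Tnfaip3 and Nfkbiz lie furthest right in the Foxp3 cells, and Relb lies left of 0 wherever it is shown. T cells with none of the dividing genes are not shown. There Relb was higher in DT, at 46.4 CPM in DT (36 UMIs) and 35.6 CPM in PBS (32 UMIs).

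T cells were divided by Foxp3, the factor of regulatory T cells, and then by Trdc (γδ T cells), Cd8a or Cd8b1, and Cd4. Foxp3 cells numbered 120 in DT and 114 in PBS, and 5 of 9 measured members were past 1.5-fold higher in DT and 0 lower, beside 8.98% and 5.83% of 7547 genes (14.8% either way). Tnfaip3 stood at 142 CPM in DT (109 UMIs) and 52.0 CPM in PBS (35 UMIs), a log2 ratio of 1.37 and an interval of the plain ratio of 1.85 to 4.12. Nfkbiz stood at 103 CPM in DT (79 UMIs) and 37.1 CPM in PBS (25 UMIs), a log2 ratio of 1.36. Rel stood at 85.9 CPM in DT and 40.1 CPM in PBS (1.01) and Nfkb2 at 103 and 60.9 CPM (0.71), and Tnf had 16 UMIs in DT and 5 in PBS (1.06). The Foxp3 cells were deeper in DT, at a median of 4946 UMIs against 3943 UMIs in PBS. The median log2 ratio over the 9 members was 0.71, beside 0.05 over all genes measured in these cells. Higher members were not particular to Foxp3 cells. T cells without Foxp3, Trdc, Cd8a, Cd8b1 or Cd4 numbered 209 in DT and 249 in PBS. Their log2 ratios were 1.18 for Tnfaip3, 0.82 for Nfkbia, 0.70 for Nfkb2, 0.60 for Rel and 0.17 for Nfkbiz. The median over the 9 members measured there was 0.38, beside 0.04 over all genes.

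Sex differed here too, with 11 male-called and 75 female-called Foxp3 cells in DT and 68 and 5 in PBS. In the male-called ones the log2 ratio was 1.25 for Tnfaip3 (12 DT and 27 PBS UMIs), 1.18 for Nfkbiz (9 and 21 UMIs), 0.22 for Rel (4 and 19 UMIs) and 0.12 for Nfkb2 (6 and 31 UMIs). Tnf had 0 UMIs in DT and 5 in PBS in male-called Foxp3 cells, and 10 UMIs in DT and 0 in PBS in female-called ones. The plain ratio in the male-called cells lay between 0 and 6.15, too wide to read a direction. In female-called Foxp3 cells Nfkb2 had a log2 ratio of 0.03 from 51 and 3 UMIs. The plain ratio there lay between 0.33 and 5.10, too wide to tell even from different. Among Cd4 cells Tnfaip3 stood at 108 CPM in DT and 53.4 CPM in PBS (0.96), and among Cd8a or Cd8b1 cells at 52.3 CPM in DT and 52.6 CPM in PBS (-0.01). The plain ratio had intervals of 1.48 to 2.79 in Cd4 cells and 0.76 to 1.3 in Cd8a or Cd8b1 cells, which do not overlap, and no test of this difference over mice was possible. In the C1qa gate Tnfaip3 stood at 94.8 CPM in DT and 26.6 CPM in PBS among cells with Pf4 (1.66, from 62 and 15 UMIs), and Tnf at 53.2 CPM in DT and 168 CPM in PBS among cells with Gpnmb (-1.57).

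Neutrophil markers were also present in the lymphocyte gates. The 7 markers summed to 103 CPM in DT and 49.5 CPM in PBS in the Cd3e gate and to 82.5 and 46.2 CPM in the Cd79a gate. At the ratio of Tnfaip3 to these markers seen in neutrophils, that amount would carry 0.592 CPM of Tnfaip3 in DT T cells and 0.144 CPM in PBS T cells, against the measured 87.2 and 49.9 CPM. For Nfkbiz in B cells it would carry 0.756 CPM in DT and 0.275 CPM in PBS, against the measured 28.9 and 17.2 CPM. These amounts assume that free RNA keeps the ratios seen in neutrophils, and the part of free RNA was not tested. The 4 epithelial markers summed to 1133 CPM in DT B cells and 80.9 CPM in PBS B cells, and 1 DT cell held 3335 of 3347 Sftpc UMIs.

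Within a library, cells with a Tnf UMI were set beside cells without one in the 4 gates with at least 30 cells of both kinds. Nfkbia was higher in the cells with Tnf in 8 of 8 comparisons of gate and library, with log2 ratios from 0.64 to 1.89, and past 1.5-fold in all 8. Tnfaip3 (0.38 to 1.91) and Nfkbiz (0.28 to 1.5) were higher in 8 of 8 and past the fold in 6. Beside them, the share of all genes past the fold on that side in DT and PBS was 21.2% and 25.1% in neutrophils, 5.72% and 5.65% in the Csf1r gate, 3.8% and 5.16% in the C1qa gate and 11% and 13.3% in the Cd3e gate.

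Nfkbia in the Csf1r gate stood in DT at 1137 CPM in 75 cells with Tnf and 304 CPM in 404 cells without, and in PBS at 962 CPM in 70 cells with Tnf and 372 CPM in 483 without. Tnfaip3 stood there in DT at 218 CPM with Tnf and 54.3 CPM without, and in PBS at 105 CPM with Tnf and 42.6 CPM without. All 63 Il6 UMIs of the DT Csf1r gate lay in cells with Tnf, against 1 of 10 in PBS. The subunit genes were less even, with Relb from -0.45 to 1.31 and Nfkb1 from -0.04 to 0.83. Cells with Tnf were deeper than those without in 7 of 8 comparisons, and the part of depth in these ratios was not tested.

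**Figure D5:**
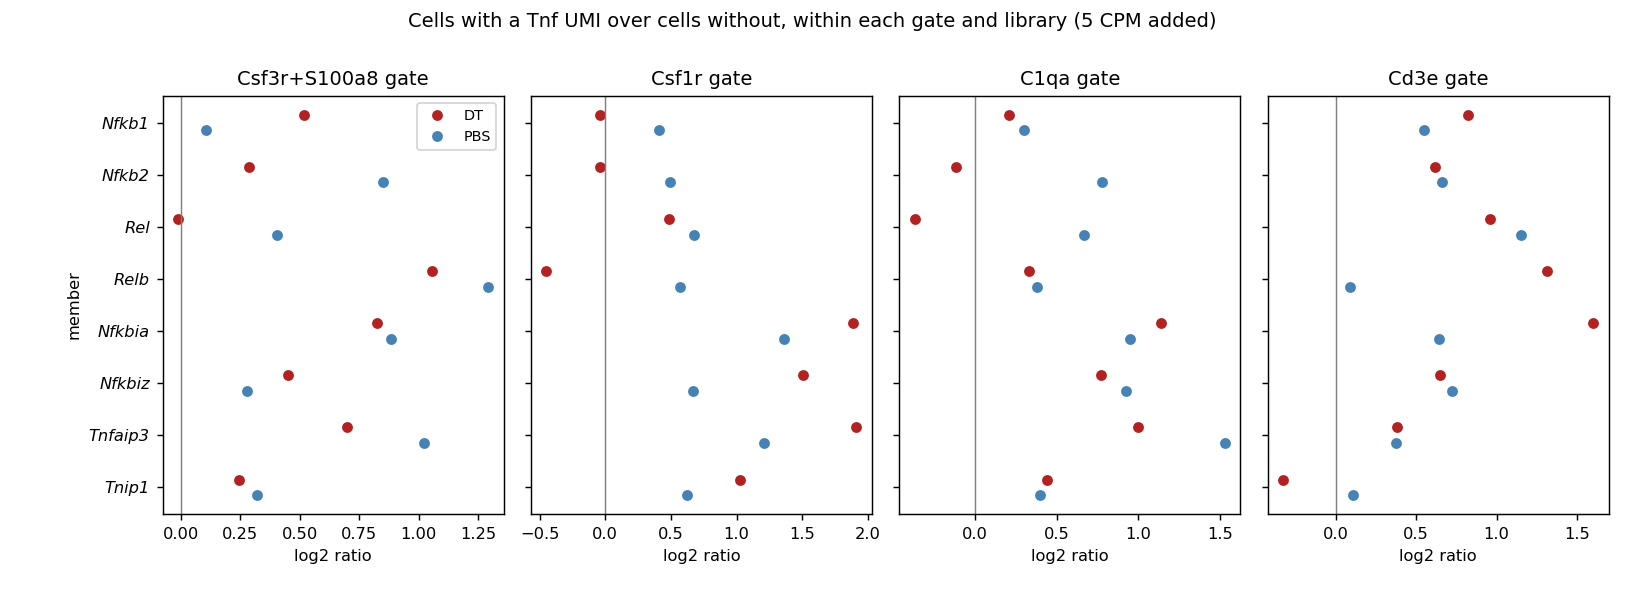
Log2 ratio (5 CPM added) of the members other than Tnf and Il6 in cells with a Tnf UMI over cells without, within the DT library (red) and the PBS library (blue), for 4 gates with their own horizontal axes. Nfkbia, Nfkbiz and Tnfaip3 lie right of 0 in all 8 comparisons, while Relb and Rel lie on both sides.

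The wider pathway was described by 5 lists. Beside the counts below, the share of all genes past 1.5-fold was 5.13% higher and 3.71% lower in the neutrophil gate. In the Csf1r gate it was 2.4% higher and 3.14% lower. A count of 1 of 20 in neutrophils is close to that share. Of 20 adaptor and kinase genes, including Rela, 20 were measured in the neutrophil gate with 1 past 1.5-fold higher, Traf6 (log2 ratio 0.63, 32 DT and 12 PBS UMIs), and 0 lower, and 20 in the Csf1r gate with 0 higher and 1 lower, Traf1 (log2 ratio -0.82), a signalling adaptor. The 14 other inhibitors had 0 of 13 measured genes past the fold in neutrophils, and in the Csf1r gate 1 of 14 higher, Zfp36 (0.79), whose protein destabilises cytokine mRNA, and 2 lower, Tnip3 (-0.83) and Nfkbie (-0.59). Of 11 ligand and receptor genes 9 were measured in each of these gates, with Tnfsf9 higher (0.68, 22 DT and 7 PBS UMIs) and Cd40 lower (-0.62, 12 and 17 UMIs) in neutrophils and 0 higher and 1 lower in the Csf1r gate, the TNF receptor gene Tnfrsf1b (-0.64). Tnfsf9, Cd40 and Traf6 were named after their values were seen.

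Target genes of the pathway were listed next. Of 23 target genes 21 were measured in neutrophils, where 20 were higher in DT and 5 past 1.5-fold (beside 55.6% and 5.13% of all genes), with a median log2 ratio of 0.43 beside 0.04 over all genes. The neutrophil-attracting chemokine genes Cxcl3 and Cxcl2 stood at 735 CPM in DT and 344 CPM in PBS (1.08) and at 16144 and 10406 CPM (0.63). In the Csf1r gate 14 of 20 measured targets were higher and 10 past the fold with 0 lower (beside 50.8% higher, 2.4% past the fold higher and 3.14% lower), with a median of 0.56 beside 0.00 over all genes. There Ptgs2, the gene of cyclooxygenase 2, stood at 132 CPM in DT and 41.1 CPM in PBS (1.57), Il1a at 34.4 and 9.73 CPM (1.42) and Cxcl3 at 39.0 and 9.24 CPM (1.63).

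The other gates were less uniform, and the share of all genes past the fold stands beside each count. C1qa cells had 11 of 20 measured targets higher in DT, which is close to the 56.5% of all genes, and 2 past the fold (2.19% of all genes), Ier3 at 191 CPM in DT and 118 CPM in PBS (0.67) among them. T cells had 5 of 19 measured targets past the fold higher and 2 lower (1.59% and 0.674%), with Cxcl2 at 105 CPM in DT and 16.2 CPM in PBS (2.37) and the chemokine gene Ccl4 at 377 and 623 CPM (-0.72). B cells had 4 of 17 higher and 0 lower (4.07% and 2.16%), with Cxcl2 at 83.5 CPM in DT and 24.6 CPM in PBS (1.58). Cxcl2 moved with the neutrophil markers, which were also higher in DT in both gates, and at its ratio to them in neutrophils they would carry 16.2 CPM in DT and 4.20 CPM in PBS in T cells and 12.9 and 3.92 CPM in B cells. Their part in its ratios was not tested. NK cells had 2 of 11 higher and 3 lower (5.45% and 5.73%), with Ccl4 at 338 CPM in DT and 982 CPM in PBS (-1.52) and Ccl3 at 112 and 285 CPM (-1.31). The Fscn1 gate had 1 of 13 higher and 3 lower (19.7% and 6.79%), so the higher count was under its background, with Gadd45b at 468 CPM in DT and 821 CPM in PBS (-0.80), and there the adaptor gene Traf1 stood at 769 and 1273 CPM (-0.72) and the inhibitor gene Nfkbie at 56.3 and 130 CPM (-1.14).

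Immediate early and heat shock genes, which can respond to tissue handling, were listed as well. Of 15 such genes in the Csf1r gate 6 were past the fold higher and 1 lower (2.4% and 3.14% of all genes), with Dusp1 at 1094 CPM in DT and 486 CPM in PBS (1.16) and Fos at 1379 and 839 CPM (0.71), while the chaperone gene Dnajb1 was at 21.6 and 44.3 CPM (-0.89). In neutrophils 1 of 15 was past the fold and higher, close to the 5.13% of all genes, Nr4a1 at 626 CPM in DT and 392 CPM in PBS (0.67). T cells had 2 of 15 higher and 2 lower (1.59% and 0.674%), and B cells 1 of 15 higher and 3 lower (4.07% and 2.16%). The part of handling in the members' ratios was not tested.

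By likeness of level, the genes closest to 4 members were found over 14 values (7 gates in 2 libraries) among 10294 genes, as Pearson's r of log2(CPM + 5). Closest to Tnf were Socs3 (0.985), Trib1 (0.978) and Rab20 (0.970), and closest to Nfkbia were Aqp9 (0.987), Csrnp1 (0.985) and Cmtm6 (0.976). Among the genes closest to Nfkb1 were Commd6 (0.966) and Commd4 (0.927). Closest to Relb were Nudt17 (0.974), the gating gene Fscn1 (0.971) and Cacnb3 (0.965), the last a gene of the mature dendritic cell markers. The 14 values share 2 libraries and the gating, and for Tnf, Nfkbia and Relb 1 gate stands far above the others, so r describes mainly that gate.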

How the data were processed

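CD45+ lung cells of 1 DT and 1 PBS library were analysed. The deposited values are log2(CPM + 1) per cell, checked from their sums. Per the submitters' processing notes, Partek, Seurat, STAR and the mm10 genome were used, with settings, versions and annotation not given in the sources used here. Because the design had assumed counts, the log was undone and the smallest step of each cell taken as 1 UMI, and 100% of values above 0 were then whole within 1%.

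Cells needed at least 200 genes, 500 UMIs and at most 10% mitochondrial UMIs, which removed 307 DT and 51 PBS cells. A gate needed 1 UMI of its gene or genes, and a cell with C1qa counted in the C1qa gate and not in the Csf1r gate. A cell of several lineages was left out, and no doublet caller was run. UMIs were summed per gate and library. With 1 library per group no test was made. Intervals are exact (Poisson, conditional binomial or Clopper-Pearson, 95%) for counting error only, and gate sums ran from 674644 to 5045730 UMIs in DT and from 476125 to 5433105 UMIs in PBS.

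The members, lists and settings were chosen with earlier results of these data known. Named pathway genes were, per list and gate, the up to 3 highest and 3 lowest past 1.5-fold with at least 100 UMIs, and of these the text gives examples. One gene among those most like Nfkb1 in level is not reported here. Sub-gates were exclusive, in the order Siglecf then Mmp8, Ace or Treml4 then Ly6c2, Gpnmb then Pf4 then Marco, and Foxp3, Trdc, Cd8a or Cd8b1, then Cd4. Male-called cells had a Y-linked UMI (Ddx3y, Eif2s3y, Kdm5d or Uty) and no Xist, and female-called cells the reverse. Steps were tested on simulated data. Python 3.11.15, numpy 2.4.6, scipy 1.17.1 and pandas 2.3.3 were used.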

Additional observations from a re-analysis of the deposited data

Results flagged for a closer look

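Members had log2 ratios past 1.5-fold in opposite directions in different groups of cells, and none of these differences was tested, since each group is 1 library. Tnf was higher in DT among Foxp3 T cells (1.06, from 16 UMIs in DT and 5 in PBS, of which male-called cells held 0 and 5, and female-called ones 10 and 0) and lower in DT among C1qa cells with Gpnmb (-1.57, from 36 and 77 UMIs). Nfkb2 was higher in DT among Foxp3 T cells (0.71, from 79 and 41 UMIs) and lower in the Csf1r gate (-0.75, from 171 and 401 UMIs). Its ratio was 0.12 in male-called Foxp3 cells (6 and 31 UMIs) and 0.03 in female-called ones (51 and 3 UMIs). These counts are too few to read a ratio closely. Nfkbia was higher in DT among T cells without Foxp3, Trdc, Cd8a, Cd8b1 or Cd4 (0.82, from 329 and 214 UMIs) and lower among Csf1r cells with Ace or Treml4 (-0.67, from 233 and 963 UMIs).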

How the results depend on the processing

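The count of members past 1.5-fold was 1 in the neutrophil, C1qa, Fscn1, Cd3e and Ncr1 gates, 2 in the Cd79a gate and 5 in the Csf1r gate. Only the Csf1r count stayed within 1.5 times under every alternative, but the members behind it changed. In female-called Csf1r cells Tnf (3.20), Il6 (2.10), Nfkbiz (1.89), Tnfaip3 (1.10) and Nfkbia (0.79) were past the fold and higher. There Nfkb2, Relb and Tnip1 were under the fold. In male-called Csf1r cells Tnf (0.98) was higher and Nfkb2, Relb and Tnip1 were lower, all past the fold. In the other gates the count came to 3 (neutrophil), 2 (Fscn1), 3 (Cd3e) and 1 (Cd79a) with overlapping gates, and to 2 (neutrophil), 2 (Fscn1), 0 (Cd79a) and 2 (Ncr1) with at least 2 gating UMIs. Thinning to 1000 UMIs gave 2 (C1qa), 3 (Fscn1) and 0 (Cd79a), equal weight per cell 2 (C1qa), 2 (Fscn1), 1 (Cd79a) and 2 (Ncr1), and mean deposited log2 values 2 (neutrophil), 0 (C1qa), 5 (Fscn1) and 0 (Cd79a). Adding 20 CPM gave 0 (C1qa and Cd79a), a minimum of 100 UMIs 0 (C1qa), median-of-ratios scaling 0 (Cd79a), leaving out the deepest 6% of cells 0 (Cd79a) and the same weight per sub-gate 2 (C1qa). Subtracting free RNA gave 2 (C1qa, Fscn1 and Ncr1) and 0 (Cd79a). Male-called cells gave 2 (neutrophil, C1qa and Fscn1) and 3 (Cd3e and Ncr1), and female-called cells 4 (neutrophil), 6 (C1qa), 3 (Fscn1 and Ncr1) and 2 (Cd3e). Chosen after seeing the data, cells with Ccr7 gave 0 (Fscn1), and leaving out the cell with most UMIs of each gene gave 1 (Cd79a).

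Among ratios past 1.5-fold, 2 changed sign under an alternative with at least 20 UMIs. Tnfaip3 in neutrophils was -0.22 in male-called cells, and Relb in the Csf1r gate was 0.0051 after thinning. Il6 in the Csf1r gate was also reversed in male-called cells (-0.73, 0 DT and 8 PBS UMIs), but with under 20 UMIs it was not counted. The causes were not tested. Tnfaip3 in the Ncr1 gate stayed past the fold under all 14 alternatives (0.66 to 1.21), Tnip1 in the Csf1r gate under 15 of 16 (-1.46 to -0.28) and, in the Cd79a gate, Tnfaip3 under 5 of 15 (0.10 to 0.77) and Nfkbiz under 5 of 15 (0.13 to 1.54). No paired analysis was possible because each group is 1 library.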
